A study of Rattus norvegicus with 8 samples.

Results

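The S100 calcium-binding protein family was followed in 8 right kidneys from F344/NSlc rats, females of 10 weeks, of which 4 had undergone sham surgery and 4 unilateral nephrectomy, the removal of the other kidney. Its members were chosen by gene symbol, with results of the comparison between these groups already known. They are S100a1, S100a4, S100a6, S100a8, S100a9, S100a10, S100a11, S100a13, S100b and S100g, 10 genes in all. Of these, 8 are among the 20935 features tested on the array. Probes were assigned through their RefSeq accession. This found probes for 9 members and none for S100a11, which is not analysed here. The probe of S100b was not reliably above background, so 8 members could be compared. No allele, drug or diet is named for either group. The series' design text places sampling at 2 days after surgery, whereas the source names read day 1 for sham and day 2 for nephrectomy, so that day and operation cannot be told apart if the source names are right. The labels do not say whether RNA of several animals was pooled, and p-values then measure only the spread between these samples, which may be technical.

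S100 proteins are small proteins with EF-hand calcium-binding loops that mostly work as dimers and change shape when calcium rises, exposing a surface that binds partner proteins. The S100a8 and S100a9 products form calprotectin, which is stored in the cytoplasm of neutrophils and of some monocytes and is released in inflammation. S100a4, S100a6, S100a10, S100a11 and S100a13 are made in stromal and epithelial cells, where they bind annexins, myosin and cargo for release, and S100g, also called calbindin-D9k, carries calcium through the cytoplasm of distal tubule cells. Most genes of the family lie in 1 cluster. In the rat RefSeq annotation S100a8 and S100a9 are neighbours at one end of the run from S100a1 to S100a9, with S100a13, S100a16, S100a4 and S100a6 among the genes between.

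S100a8 and S100a9 were lower in the nephrectomized kidneys, by 3.23-fold and 2.65-fold. S100g was 1.91-fold lower on average with overlapping groups, and S100a1, S100a4, S100a6, S100a10 and S100a13 lay within 1.15-fold of the sham mean. Levels below are log2 values of the array signal relative to that array's 75th percentile, so 1 unit is a doubling, and differences are nephrectomized minus sham. Each probe has its own brightness, so levels are compared between arrays and not between genes. With limma, fitted over all features with Benjamini-Hochberg adjustment and a threshold of 0.05, 2 of the 8 members were called, both lower, against 1.04% of all features in either direction, 0.287% lower and 0.75% higher. The groups did not overlap for the same 2 members, both lower, and for 11.1% of all features, 4.07% lower and 7.06% higher. At an unadjusted limma p under 0.05, used for the gene lists further on, 16% of all features passed, 6.3% lower and 9.74% higher. The members were chosen from this contrast, so nothing is read from these counts, and the members' differences are given as descriptions with no p-value.

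S100a8 had levels of -0.61, -0.75, -1.22 and -1.23 in sham replicates 1 to 4. In nephrectomized replicates 1 to 4 it had levels of -2.02, -2.51, -2.90 and -3.15. The highest nephrectomized array lay below the lowest sham array, and the nephrectomized kidneys were spread more widely than the sham kidneys, over a 2.20-fold range against a 1.54-fold range. The means were -0.95 ± 0.32 and -2.64 ± 0.50 (SD, n = 4 each), a difference of -1.69 ± 0.25 (SE; 95% interval -2.27 to -1.11). The processed signal behind these levels was 197 to 421 scanner units in sham and 43.7 to 123 in nephrectomized kidneys, well above background on every array. Another background correction, normexp with an offset of 50, gave a difference of -1.02. The call on S100a8 was lost without any 1 of the 4 sham arrays and without nephrectomized replicate 2, 3 or 4, with differences from -1.78 to -1.52, and without a filter on dim probes, and it held at -1.90 without nephrectomized replicate 1.

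S100a9, whose product pairs with that of S100a8, had levels of 0.04, -0.15, -0.44 and -0.61 in sham replicates 1 to 4. Its levels were -1.41, -1.48, -1.87 and -2.01 in nephrectomized replicates 1 to 4. Again no nephrectomized array reached the lowest sham array, and here both groups spanned a similar range, 1.57-fold and 1.52-fold. The means were -0.29 ± 0.29 and -1.69 ± 0.29 (SD, n = 4 each), a difference of -1.40 ± 0.18 (SE; 95% interval -1.82 to -0.99). The processed signal was 339 to 662 in sham and 96.3 to 187 in nephrectomized kidneys. The call on S100a9 was lost without sham replicate 1, 2 or 3 and without nephrectomized replicate 3 or 4, with differences from -1.45 to -1.29, and without that filter, while normexp gave -1.01. In whole tissue, fewer cells of a type and less RNA per cell cannot be told apart.

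**Figure D1:**
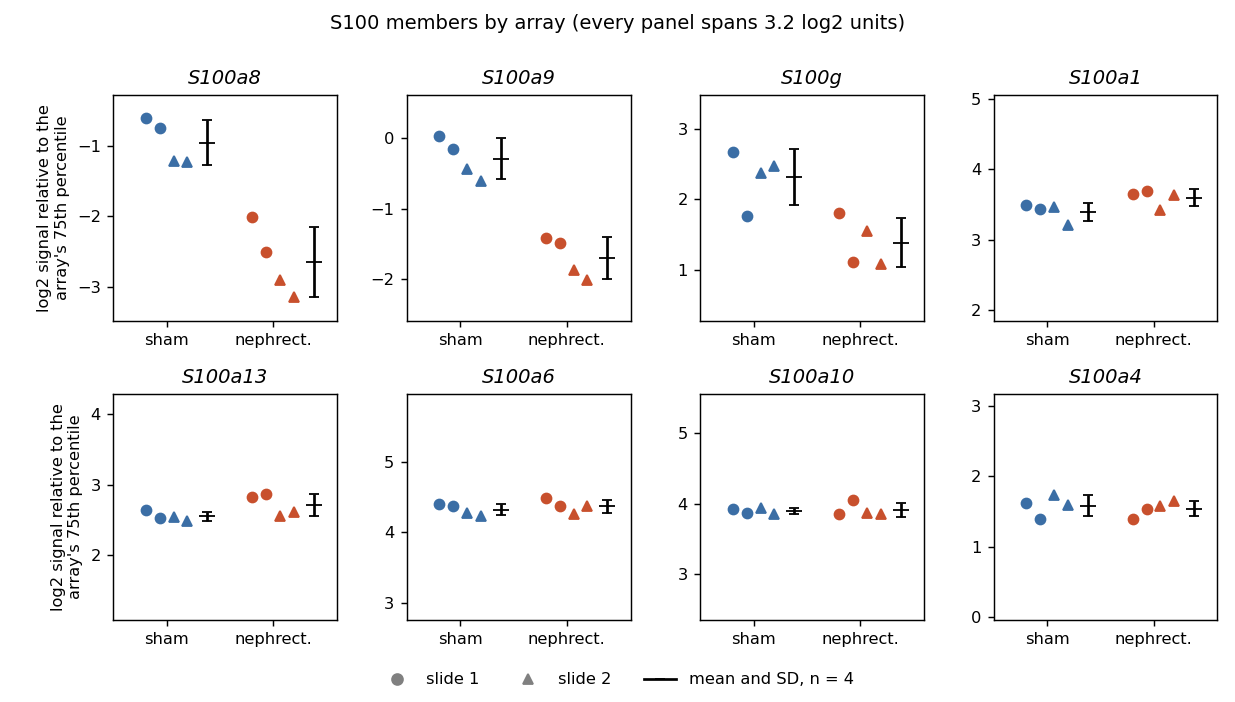
Log2 signal relative to the array's 75th percentile for the 8 members measured, with panels of equal height in log2 units, with sham arrays in blue, nephrectomized arrays in orange, circles for slide 1, triangles for slide 2 and black bars for the mean and SD of 4 arrays. S100a8 and S100a9 do not overlap between groups, S100g overlaps at 1 sham array, and the other members lie at similar heights in both groups.

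Both genes also differed between the slides that carried the arrays. The 8 arrays lay on 2 slides, scanned in separate sessions, with 2 sham and 2 nephrectomized arrays on each. Slide 2 minus slide 1 was -0.55 in sham and -0.76 in nephrectomized kidneys for S100a8, and -0.47 and -0.50 for S100a9, so both genes were lower on slide 2 in both groups. For S100a8 the nephrectomized minus sham difference was -1.58 within slide 1 and -1.80 within slide 2. For S100a9 it was -1.39 and -1.42. With equal numbers of arrays on each slide, the difference over all arrays is the mean of these slide values. Sham kidneys always took the first pair of places on a slide and nephrectomized kidneys the last pair, and an effect of place cannot be told apart from that of the operation.

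The pair moved closely together from array to array. Group means were subtracted, and the slide difference was left in. S100a8 and S100a9 then correlated at 0.94 over the 8 arrays, which share their RNA extract, slide and scaling. This was the highest value among the 28 pairs of measured members, which ranged down to -0.71 for S100a4 with S100a8. S100a13 (0.76 with S100a8, 0.82 with S100a9) and S100a6 (0.79 with each) came next among the pairs that include S100a8 or S100a9, although their group means did not drop. Relative to the sham means, S100a8 minus S100a9 was 0.06, -0.36, -0.36 and -0.48 in nephrectomized replicates 1 to 4, so S100a8 lay further down in 3 of 4. The sham kidneys stayed between -0.12 and 0.07 on this measure.

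The start region of S100a9 is shown with those of S100a4 and S100a6 because the 3 genes lie in the same cluster and S100a9 alone among them was called. Promoters from RefSeq on GRCr8 were matched for 6 of the 10 members, with S100a1, S100a8, S100a10 and S100g unmatched. Each line gives the 250 bases before the annotated start, 5′ to 3′ on the gene's strand, with matches to any of 4 motifs in capitals.
S100a9: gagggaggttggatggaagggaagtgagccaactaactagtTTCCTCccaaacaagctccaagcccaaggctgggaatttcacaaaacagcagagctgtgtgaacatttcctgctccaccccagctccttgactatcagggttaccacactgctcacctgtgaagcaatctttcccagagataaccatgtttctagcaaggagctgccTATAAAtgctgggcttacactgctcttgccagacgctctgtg
S100a4: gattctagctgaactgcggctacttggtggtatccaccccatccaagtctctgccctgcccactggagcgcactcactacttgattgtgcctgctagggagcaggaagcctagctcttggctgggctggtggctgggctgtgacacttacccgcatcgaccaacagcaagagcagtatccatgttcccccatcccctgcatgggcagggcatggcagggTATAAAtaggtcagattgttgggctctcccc
S100a6: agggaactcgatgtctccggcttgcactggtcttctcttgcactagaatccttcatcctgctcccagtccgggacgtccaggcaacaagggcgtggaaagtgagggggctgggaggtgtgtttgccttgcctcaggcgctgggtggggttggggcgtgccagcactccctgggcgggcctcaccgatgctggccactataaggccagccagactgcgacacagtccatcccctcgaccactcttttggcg
The S100a9 window is chr2:178490623-178490872 on the minus strand, that of S100a4 is chr2:178388279-178388528 and that of S100a6 is chr2:178398287-178398536, both on the plus strand. The motifs were searched on both strands as TATAAA for the TATA box, TTGCNNAA for C/EBP, GAGGAA for PU.1 and TGANTCA for AP-1, and no match overlapped another in these windows. TATAAA began 42 bases before the start of S100a9 and 31 bases before that of S100a4, and 12.9% of 33469 rat promoter windows of the same length hold it. GAGGAA was found 1 time in the S100a9 window, 209 bases before the start on the opposite strand, and 23.3% of windows hold it. TTGCNNAA and TGANTCA, held by 9.22% and 6.34% of windows, were not in these 3 windows.

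Set against the other members, the pair lay lower on every nephrectomized array, which describes the values that chose the members. The mean of S100a8 and S100a9 relative to the sham mean was -1.09, -1.37, -1.77 and -1.96 in nephrectomized replicates 1 to 4, while the mean of the other 6 measured members was -0.01, -0.07, -0.14 and -0.15. The gap between the means was -1.46, with an SD of 0.30 among sham and 0.33 among nephrectomized arrays. Of the other 6 members 2 had negative differences and their median was 0.03, beside a median of 0.01 over all features, of which 47.5% were negative. Without S100g the mean of the others was 0.08 higher than in sham.

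**Figure D2:**
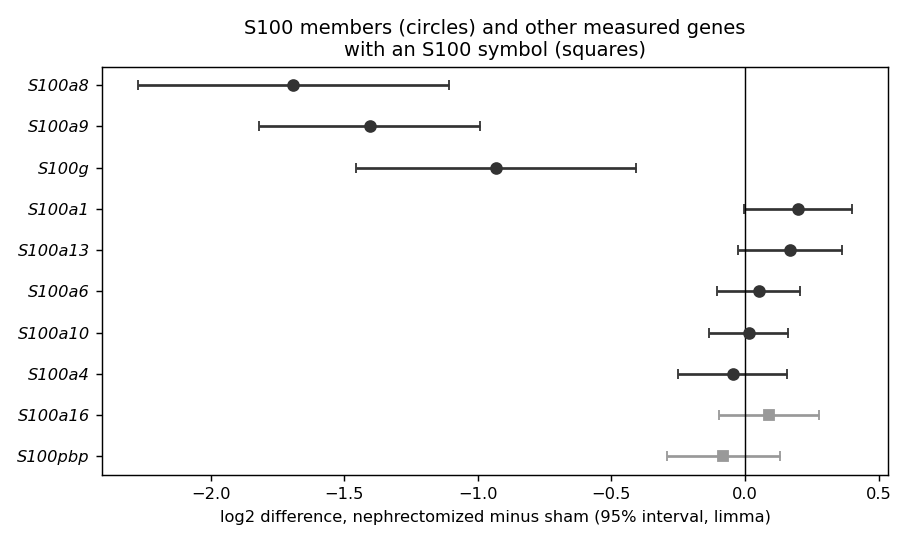
Log2 difference, nephrectomized minus sham, with limma's 95% interval on the horizontal axis, for the 8 measured members as circles and for S100a16 and S100pbp as squares. The intervals of S100a8, S100a9 and S100g lie below 0, and those of the others include 0.

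S100g had the third largest difference in the family. Its levels were 2.67, 1.76, 2.37 and 2.47 in sham replicates 1 to 4. They were 1.80, 1.11, 1.55 and 1.08 in nephrectomized replicates 1 to 4. All 4 nephrectomized arrays lay below the sham mean and 3 lay below the lowest sham array, sham replicate 2, which nephrectomized replicate 1 passed. The means were 2.32 ± 0.39 and 1.38 ± 0.35 (SD, n = 4 each), a difference of -0.93 ± 0.23 (SE; 95% interval -1.46 to -0.41), which is between 1.33-fold and 2.74-fold lower. It was not called, and within slides the difference was -0.76 on slide 1 and -1.10 on slide 2. Normexp background correction gave -0.90 and a call. The spread of S100g within groups was large, a pooled SD of 0.37 that 92.4% of features did not reach. After subtracting the group means, S100g correlated with S100a8 at 0.31 and with S100a9 at 0.17 over the 8 arrays.

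Calb1, which encodes calbindin-D28k, the larger calcium carrier of the same tubule cells, lay on the other side. Its levels were 4.38, 4.47, 4.36 and 4.16 in sham replicates 1 to 4. They were 4.71, 4.70, 4.85 and 4.96 in nephrectomized replicates 1 to 4. No nephrectomized array reached down to the highest sham array, yet the difference of 0.46 ± 0.09 (SE) just missed limma's threshold (adjusted p = 0.0519). Calb1 belongs to a list of 15 genes of distal tubule calcium transport, with probes for 14 and a test for 12. None was called, and 1 was higher and 0 lower at an unadjusted limma p under 0.05. The list had 8 positive differences and a median of 0.03, and Klk1, a kallikrein of the connecting tubule, was at -0.06 ± 0.07 (SE). The following 3 genes were picked after their values were seen. Trpv5, the luminal calcium channel, was at 0.20 ± 0.15, Slc8a1, a sodium-calcium exchanger, at 0.31 ± 0.18 and Cyp24a1, which degrades vitamin D, at -0.53 ± 0.42 (SE). Trpv6, an intestinal relative of Trpv5, was not well above background on any array.

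**Figure D3:**
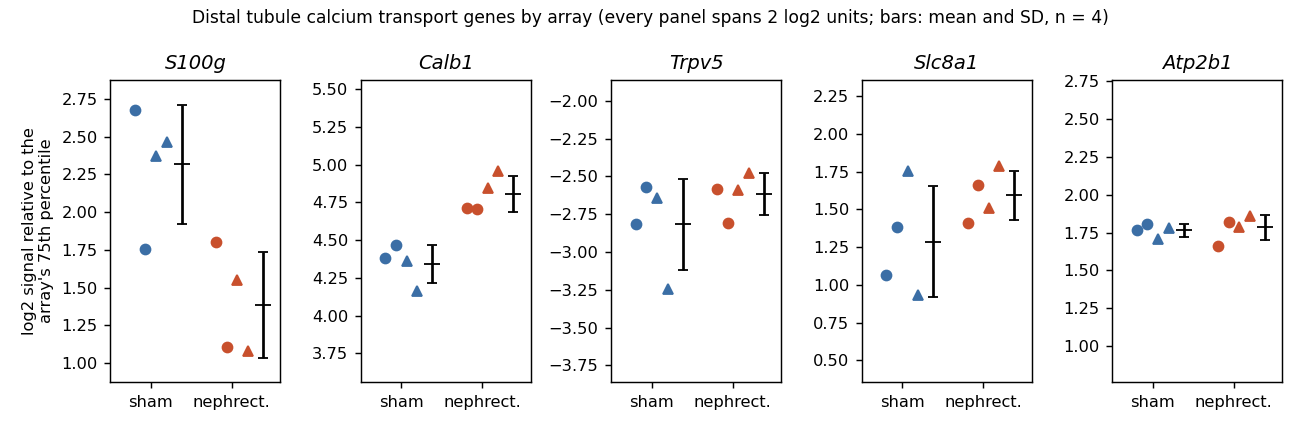
Log2 signal relative to the array's 75th percentile for S100g and 4 genes of calcium transport, with panels of equal height in log2 units, with sham arrays in blue, nephrectomized arrays in orange, circles for slide 1, triangles for slide 2 and bars for the mean and SD of 4 arrays. S100g is lower and Calb1 higher in nephrectomized kidneys, while Trpv5, Slc8a1 and Atp2b1 overlap between groups.

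The stromal and epithelial members were not called and differed less between groups than S100a8, S100a9 and S100g. S100a1, best known as a regulator of calcium release in muscle, had levels of 3.49, 3.44, 3.46 and 3.21 in sham and 3.66, 3.69, 3.42 and 3.63 in nephrectomized replicates 1 to 4. Its groups overlapped at nephrectomized replicate 3, and its difference was 0.20 ± 0.09 (SE; 95% interval -0.00198 to 0.40). S100a13, a cofactor for the release of fibroblast growth factor 1 and interleukin 1 alpha, ran from 2.49 to 2.63 in sham and from 2.55 to 2.87 in nephrectomized kidneys. Its difference was 0.17 ± 0.09 (SE; 95% interval -0.03 to 0.36), with 0.27 on slide 1 and 0.06 on slide 2. Both genes were above the sham mean on all 4 nephrectomized arrays, and their group-centred levels correlated at 0.72.

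S100a6, also called calcyclin, ran from 4.24 to 4.40 in sham and from 4.25 to 4.48 in nephrectomized kidneys, a difference of 0.05 ± 0.07 (SE; 95% interval -0.11 to 0.21). S100a10, the partner of annexin A2 that does not bind calcium, ran from 3.85 to 3.94 and from 3.85 to 4.06, with nephrectomized replicate 2 alone above 3.94. Its difference of 0.01 ± 0.06 (SE; 95% interval -0.13 to 0.16) had the other sign with quantile (-0.016) and cyclic loess (-0.018) scaling, and without sham replicate 4 (-0.000855) or nephrectomized replicate 2 (-0.036). S100a4, a marker of fibroblasts and some leukocytes that binds nonmuscle myosin, ran from 1.39 to 1.74 in sham and from 1.40 to 1.65 in nephrectomized kidneys. Its difference was -0.05 ± 0.09 (SE; 95% interval -0.25 to 0.16), its second probe gave -0.06, and the sign turned without sham replicate 3 (0.0065) or nephrectomized replicate 1 (0.0017). The intervals of these 3 genes leave room for changes of up to 0.25 on the log2 scale in size. Their pooled SD was 0.09 for S100a6, 0.08 for S100a10 and 0.13 for S100a4, against 0.42 for S100a8 and 0.29 for S100a9.

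S100b, best known from glia, was measured by 10 spots per array. The median spot signal was 2.95 to 6.66 scanner units, and 1 spot on nephrectomized replicate 2 (88.6) and 1 on replicate 3 (34.0) were alone in being well above background among the 80 spots of the 8 arrays. No fold is given for it. Markers of nerve and glia were counted as a list of 8 genes, of which 6 were tested, none was called, and differences ran from -0.26 to 0.62 with a median of 0.18 (1 higher and 1 lower at an unadjusted limma p under 0.05).

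Outside the members, 7 further genes with an S100 symbol had probes. S100a16, which lies in the same cluster, ran from 3.88 to 4.11 in sham and from 3.96 to 4.23 in nephrectomized kidneys, a difference of 0.09 ± 0.08 (SE; limma adjusted p = 0.636). S100pbp, which encodes a binding partner of an S100 protein, was at -0.08 ± 0.09 (SE; adjusted p = 0.721), and its second probe also gave -0.08. S100a3, S100a5, S100a7a and S100z were not well above background on any array. S100vp was above background on sham replicate 3 alone.

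Among receptors, partners and genes of S100 release, 19 of 22 listed genes were tested and none was called by limma, with 2 higher and 0 lower at an unadjusted p under 0.05. Their differences ran from -0.59 to 0.26 around a median of -0.02. Bsg, a receptor of the S100a9 product, was at 0.17 ± 0.07 (SE; adjusted p = 0.313) and Tgm2, a transglutaminase, at -0.06 ± 0.13 (adjusted p = 0.866). Further receptors, named after their values were seen, were Tlr4 at -0.06 ± 0.09 and Ager, which encodes RAGE, at -0.12 ± 0.09 (SE). Anxa2, the partner of S100a10, was picked in the same way and was at 0.26 ± 0.08 (SE; adjusted p = 0.184). Other EF-hand calcium binders were called in 0 of 18 tested cases, with 2 higher and 0 lower at an unadjusted limma p under 0.05. Of these 14 had positive differences, the median was 0.10, and the brightest, Cib1 and the calmodulin gene Calm3, were at 0.17 ± 0.07 and 0.05 ± 0.10 (SE).

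Leukocyte genes were read beside S100a8 and S100a9. The list of neutrophil genes held 30 symbols, 25 with a probe and 10 tested, and none was called by limma, with 0 higher and 2 lower at an unadjusted p under 0.05, where 6.3% of all features were lower. The median difference was -0.13 and 9 of the 10 were negative, against -1.69 and -1.40 for S100a8 and S100a9. Ncf4 and Ncf1, subunits of the phagocyte oxidase, were at -0.17 ± 0.07 and -0.11 ± 0.12 (SE; adjusted p = 0.264 and 0.720). On this list 13 genes were not well above background on any array, among them the granule genes Elane, Ctsg, Camp and Mmp8 and the receptors Cxcr2 and Csf3r. The list median and the sums below therefore do not cover these genes. The summed signal of the tested genes, in units of the array's 75th percentile, was 3.06 to 3.72 in sham and 3.005 to 3.60 in nephrectomized kidneys, so the groups overlapped. Ncf4, Ncf1 and Itgb2 held 29.6%, 26.3% and 15.9% of the sham sum. Padi4, a histone-modifying enzyme of granulocytes, varied most, at 0.69 ± 0.85 (SE), and without it the sums were 2.944 to 3.33 and 2.70 to 2.948, touching at the edge. The part of neutrophil number in the difference of S100a8 and S100a9 was not tested.

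Of 17 tested monocyte and macrophage genes limma called 1 lower and none higher. At an unadjusted limma p under 0.05, 6 were lower and 0 higher, beside 6.3% lower and 9.74% higher over all features. Adgre1, the macrophage antigen F4/80, had levels of -0.81, -0.65, -0.63 and -0.66 in sham replicates 1 to 4. Its levels were -1.35, -1.33, -1.01 and -1.11 in nephrectomized replicates 1 to 4, without overlap. It fell by 0.51 on the log2 scale (SE 0.09; limma adjusted p = 0.0476), and the call was lost without any 1 of the 8 arrays (adjusted p from 0.0683 to 0.134, differences from -0.58 to -0.46). Over 19 alternatives using both slides its adjusted p lay between 0.0234 and 0.142. The list median was -0.15 and 16 of 17 differences were negative. Its summed signal was 158 to 175 in sham and 134 to 149 in nephrectomized kidneys and did not overlap. Cd74, the invariant chain of antigen presentation, held 53.9% of the sham sum, and without it the sums were 74.3 to 78.1 and 67.6 to 76.3 and overlapped. With any 1 of the other 16 genes left out they did not overlap. The part of these cells in the result on S100a8 and S100a9 was not tested. Of this list Itgam, found on monocytes and neutrophils, and Ccr2 were not well above background on any array.

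Red cell and platelet genes, which report residual blood, were called in 0 of 8 tested cases, with 0 at an unadjusted limma p under 0.05 in either direction. Their median difference was 0.08, and Hba-a3, a globin gene, and Slc4a1, the band 3 anion exchanger shared with the collecting duct, were at 0.14 ± 0.16 and -0.13 ± 0.13 (SE). The summed signal was 98.9 to 140 in sham and 118 to 140 in nephrectomized kidneys. Hba-a3 held 83.7% of the sham sum and Slc4a1 12.7%. Without Hba-a3 the sums were 17.8 to 22.5 in sham and 17.0 to 20.3 in nephrectomized kidneys, and still overlapped.

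**Figure D4:**
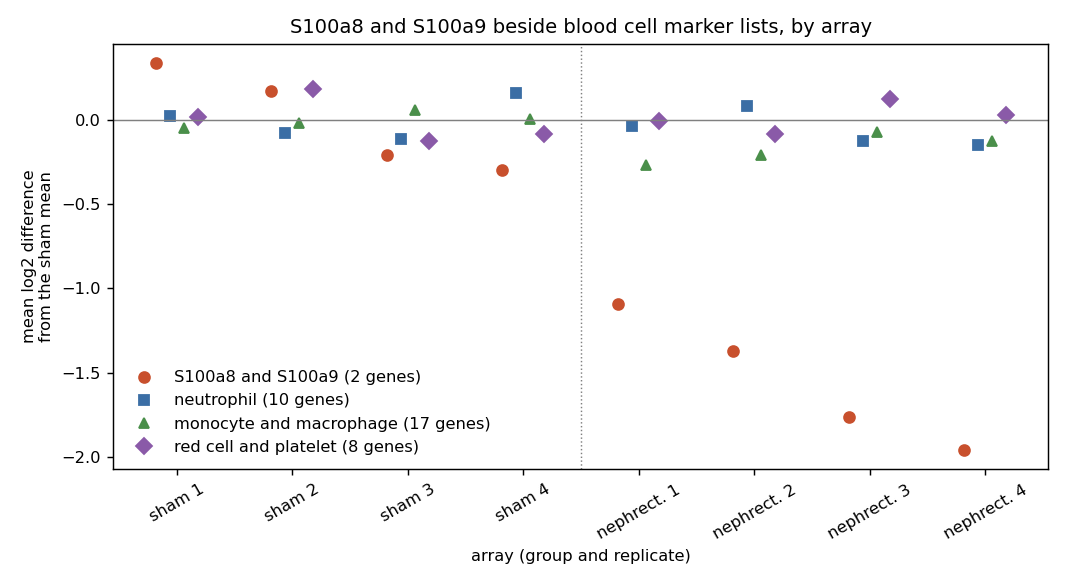
Mean log2 difference from the sham mean on the vertical axis for each of the 8 arrays. Shown are S100a8 and S100a9, 10 tested genes of the neutrophil list, 17 monocyte and macrophage genes and 8 red cell and platelet genes. The pair drops to between -1.09 and -1.96 on the nephrectomized arrays, while each list mean stays between -0.27 and 0.19 on all arrays.

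Signals known to induce S100a8 and S100a9 in myeloid cells were listed as 18 genes, 13 of them tested. Of these limma called 1 lower and none higher. At an unadjusted limma p under 0.05, 4 were lower and 1 higher, beside 6.3% lower and 9.74% higher over all features. The list median was -0.08. Il6r, an interleukin 6 receptor subunit, had levels of -1.86, -2.02, -1.91 and -2.02 in sham replicates 1 to 4. Its levels were -2.49, -2.33, -2.30 and -2.42 in nephrectomized replicates 1 to 4. Without overlap between groups, it fell by 0.43 on the log2 scale (SE 0.07; limma adjusted p = 0.0382). The call was lost without any 1 of the 8 arrays (adjusted p from 0.0601 to 0.103, differences from -0.46 to -0.39), and over 19 alternatives the adjusted p lay between 0.0271 and 0.275, with a difference of -0.17 under normexp. Il1b, which encodes interleukin 1 beta and was picked after its values were seen, was at -0.81 ± 0.17 (SE; adjusted p = 0.0691), with levels from -1.25 to -0.49 in sham and from -2.01 to -1.68 in nephrectomized kidneys. Il10, which encodes interleukin 10 and was also picked after its values were seen, lay the other way at 0.42 ± 0.10 (SE; adjusted p = 0.0892). Its levels ran from -5.83 to -5.44 in sham and from -5.32 to -5.05 in nephrectomized kidneys. These signals lie near background, and Il10 was well above it on only 6 of the 8 arrays. Csf3, Csf2 and Cxcl2 were not well above background on any array.

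**Figure D5:**
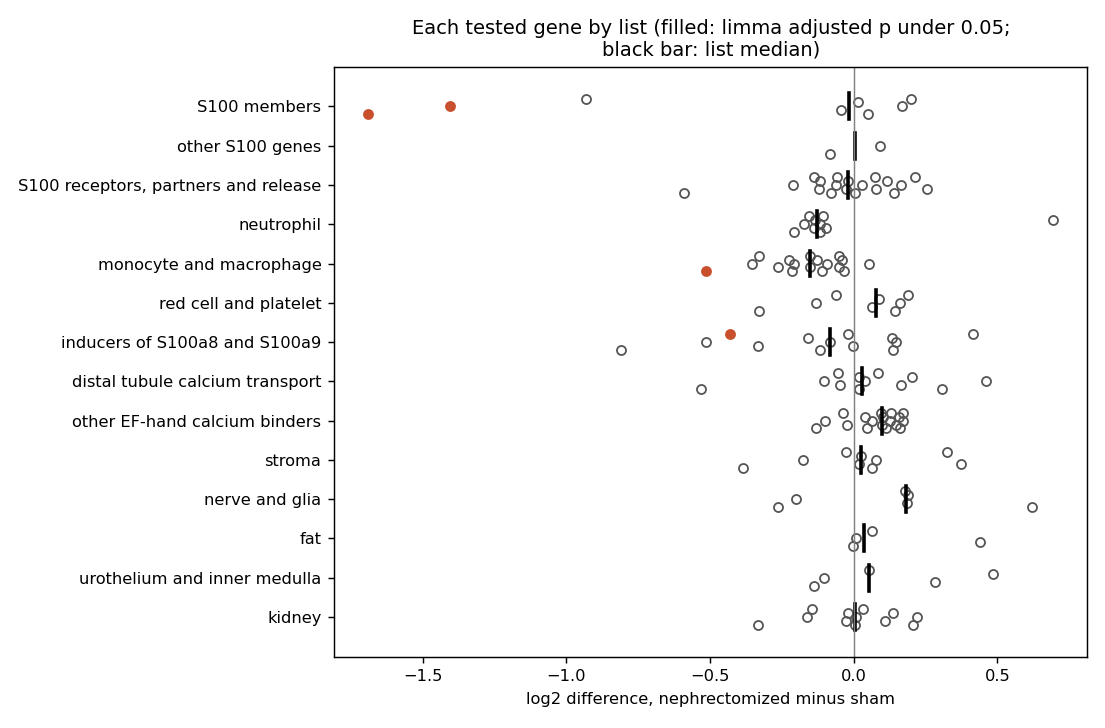
Log2 difference, nephrectomized minus sham, on the horizontal axis for each tested gene of the S100 members and of 13 lists, with filled points for limma calls and a black bar for each list's median. S100a8, S100a9, Adgre1 and Il6r are filled, and all list medians other than that of the members lie between -0.15 and 0.18.

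The remaining lists check the tissue and other cells that S100 genes could come from. All 12 kidney genes, from the proximal tubule to the podocyte, were well above background on all 8 arrays, and none was called (0 at an unadjusted limma p under 0.05, median 0.01). Umod and Slc34a1 were at 0.03 ± 0.14 and -0.16 ± 0.08 (SE). Stromal genes ran from -0.39 to 0.38 over 9 tested genes, fat genes up to 0.44 over 4, and urothelial and inner medullary genes from -0.14 to 0.49 over 5, with medians of 0.03, 0.04 and 0.05. None of these was called, and 1 stromal gene was higher and 1 lower at an unadjusted limma p under 0.05, 0 fat genes were, and 1 gene of the last list, the collecting duct water channel Aqp4, was higher.

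Genes with a pattern like that of the members were ranked by the correlation of group-centred levels over the 8 arrays, given as a description. Slide differences were not removed, and S100a8 and S100a9 were lower on slide 2 in both groups. A high correlation with the pair can therefore reflect a slide difference, which was not tested. For the mean of S100a8 and S100a9 the closest named genes were Rogdi (0.99), Akt1s1 (0.98), 1700001K19Rikl (0.97), Kdelr1 (0.96) and, at 0.95, Srm, Ncln, Yipf3 and Arpp19. Of all named features 0.616% passed 0.9. Over all arrays without centring the correlation with the pair was 0.98 for 1700001K19Rikl, 0.79 for Kdelr1 and 0.75 for Yipf3, and between -0.48 and 0.21 for the other 5. The differences of these first 3 were -0.56 ± 0.12, -0.10 ± 0.07 and -0.12 ± 0.09 (SE), with no call. For S100g they were Glyat (0.99), a glycine acyltransferase, Slc25a42 (0.97), Myo7a (0.96), Sh3tc1 (0.95) and Patz1 (0.95), with differences from -0.17 to 0.05 and no call. None of these 13 genes is a neutrophil or calcium transport gene of the lists. Those lists hold only 10 and 12 tested genes among 10240 tested features with a symbol, so nothing is read from this.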

How the data were processed

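Total RNA from 8 right kidneys was labelled with Cy3 and hybridised to 1-colour Agilent rat arrays, and the authors deposited 1 Agilent Feature Extraction 10.5.1.1 file per array. Per the file headers the processed signal is a linear intensity after background subtraction and spatial detrending, with no scaling across arrays, the median spot and background signals are raw intensity values, and flags of 0 or 1 mark spots. The deposited series table holds log2 values. Set against the scanner files of the same arrays these have a slope of 1.00 and a correlation of 1.00, with each probe centred on its median, and their column medians lie between -0.0145 and 0.0153.

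Log2 processed signals had each array's 75th percentile subtracted. Control spots (1639 of 45018) and outlier spots were left out and spots of 1 probe averaged. Tested probes had at least 1 spot well above background on 4 or more of the 8 arrays, and a gene took its brightest probe. Symbols came from RefSeq accessions (assembly GRCr8; 18713 of 41012 probes). Between 59.5% and 66.1% of probes per array were well above background, none was saturated, and arrays correlated at 0.986 to 0.993. The number of arrays limits the precision.

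The comparison used limma 3.58.1 (R 4.3.3) over 20935 features (6 residual and 2.37 prior degrees of freedom), Benjamini-Hochberg adjusted at 0.05, and the steps were tested on simulated data. Members and lists were chosen with earlier results of these data known. Named are all members, other S100 genes, called list genes or the 2 brightest of a list, and the closest genes by correlation. The cell type lists of stroma, nerve and glia, fat, and urothelium are given as ranges. Alternatives were other background corrections, scalings, filters, probe rules, variance models, blocks, and leaving out arrays. Leaving each gene out of the summed blood cell lists was chosen after seeing the data. The planned normexp setting took the median spot signal, as the files hold no mean spot signal.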

Additional observations from a re-analysis of the deposited data

Results flagged for a closer look

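In 3 of 36 sets of 4 arrays, formed by each S100 probe in each group, 1 array stood far from the other 3. Chance alone marks about 1 in 20 such sets. S100a10 was at 4.06 in nephrectomized replicate 2, with the other 3 nephrectomized arrays between 3.85 and 3.88. S100vp, which is known from the ventral prostate, was at -1.45 in sham replicate 3, the only array on which it was well above background, while the other 7 arrays lay between -6.77 and -5.82. Its single spot there had a processed signal of 168 against 3.55 to 8.12 elsewhere. S100a3 was at -6.50 in nephrectomized replicate 2, below the other 3 nephrectomized arrays, with no array well above background.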

How the results depend on the processing

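Under the 19 alternatives that use both slides, S100a8, S100a9 and S100g stayed lower and S100a1, S100a6 and S100a13 stayed higher in the nephrectomized kidneys. For these members, each with a single probe, the sign could not turn under the probe rule, variance model, blocks or filters. Those settings leave the difference unchanged. The deposited series values are the same scanner data. Leaving out an array could not turn the sign for S100a8 and S100a9, whose groups did not overlap. For this pair, only normexp and the other scalings could have turned it. S100a8 was called in 11 of the 19, S100a9 in 13 and S100g in 1. Normexp background correction gave -1.02 for S100a8, -1.01 for S100a9 and -0.94 for the gap between this pair and the other members. The replicate block left the differences at -1.69, -1.40 and -0.93 for S100a8, S100a9 and S100g, with SEs of 0.10, 0.06 and 0.13. Same-numbered arrays did not pair. Correlations of their group-centred levels ran from -0.21 to 0.14, with best matches to another number for 3 of 4. The numbers do carry the slide, with replicates 1 and 2 of both groups on slide 1 and replicates 3 and 4 on slide 2. The replicate block therefore also takes up the slide difference. A slide block gave SEs of 0.12, 0.07 and 0.24 for S100a8, S100a9 and S100g.

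The count of features called, 157 higher and 60 lower, varied more. It was 398 and 132 with trend and robust variance, 6 and 4 with the replicate block, 69 and 31 with the slide block, 295 and 99 with probes above background on all 8 arrays, and 17 and 3 without a filter. On either slide alone limma called 0 and 0, with 1882 and 1742 features at an unadjusted p under 0.05. Leaving out 1 array gave 18 to 162 higher and 4 to 35 lower. Called genes in the fixed lists numbered 2, Adgre1 and Il6r, against 1 with normexp or the slide block. With normexp that 1 was another gene, as Il6r and Adgre1 had limma adjusted p-values of 0.275 and 0.0802. Called genes numbered 3 with quantile, median or cyclic loess scaling, 6 with trend and robust variance and 4 with all 8 arrays above background. They numbered 0 with the replicate block, no filter, either slide alone or any array left out, where 13 to 25 list genes had an unadjusted limma p under 0.05. Signals near background limit S100b, Il10, most neutrophil genes and the size of the S100a8 difference. The differences of S100a9, Il6r and Adgre1 were also smaller in size with normexp, at -1.01, -0.17 and -0.38. The cause of these shifts was not tested.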
